A study of Mus musculus with 4 samples.

Results

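Interleukins are secreted proteins by which leukocytes and tissue cells signal to each other, and each acts through a receptor built from 1 or more membrane chains. Their transcripts were measured in the stromal vascular fraction of mouse inguinal fat, the mixture of progenitors, vessel cells and immune cells left when floating adipocytes are removed from digested tissue. The genes described here are those whose listed symbol starts with Il and a digit, and 84 symbols fit that pattern. The rule left out 5 of them, and the remaining 79 of 26214 listed symbols are the members. They comprise 34 ligands, antagonists and binding proteins, 40 receptor chains and 5 others placed by symbol alone (Il16, Il34, Il4i1, Il4i1b and Il1bos). The rule reads symbols and no measured value, but it was chosen with earlier results of these data known.

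Total RNA was sequenced from mice given a medicinal herb extract (MHE, 2 libraries) and mice given phosphate-buffered saline (PBS, 2 libraries). The labels call the libraries biological replicates and do not state strain, age, diet, or the extract's composition, dose and duration. Their protocol mentions triplicates, whereas 2 libraries of each treatment are described here. Libraries held 27161882 to 33391075 counts. With 2 libraries against 2, an exact permutation of a single value cannot give a two-sided p under 0.333, so calls rest on edgeR's quasi-likelihood test fitted across all genes, with a Benjamini-Hochberg adjusted p under 0.05. Expression is given as CPM, counts scaled to a library size corrected by composition (TMM) factors, and a log2 fold change (MHE minus PBS) is followed by its standard error (SE).

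Transcripts of the cell types of this fraction were present in every library, and so were those of adipocytes. Markers of adipocyte progenitors and fibroblasts summed to 1056 to 2278 CPM, blood endothelial markers to 848 to 1753 CPM and macrophage markers to 1744 to 4020 CPM. Markers of mature adipocytes, which the preparation should remove, summed to 14926 to 37074 CPM, the largest sum of any marker list in every library. By these markers the libraries were not free of adipocyte RNA. T cell markers summed to 1043 and 766 CPM with the extract and 52.6 and 29.4 CPM with saline, and B cell markers to 2154 and 1717 against 135 and 14.6 CPM. The 2 saline libraries thus stood apart in B cell transcripts.

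Most interleukin receptors fall into a few families by their chains. Receptors of the common gamma chain family share the product of Il2rg, signal through Janus kinases and STAT factors, and serve lymphocyte growth and survival. Receptors of the IL-1 family signal through the adaptor MyD88, and those of the IL-17 family through the adaptor encoded by Traf3ip2. In fat, interleukins are known as signals between resident macrophages, lymphocytes and adipocytes, and soluble antagonists or decoy chains limit several of them.

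The regions before the transcription start are shown for the shared gamma chain and for 3 chains that pair with it, since these 4 genes lay higher in both extract libraries than in both saline libraries. Each is the 250 bases before the first start that RefSeq's promoter table (GRCm38.p6, the assembly behind mm10) lists, 5′ to 3′ on the gene's strand. For Il7r, Il9r and Il21r that start lies inside the annotated gene. Il2rg is chrX:101268256-101268505 (minus strand), Il7r is chr15:9529877-9530126 (minus), Il9r is chr11:32200280-32200529 (minus) and Il21r is chr7:125603179-125603428 (plus). Capitals mark matches to motifs searched on both strands.
Il2rg: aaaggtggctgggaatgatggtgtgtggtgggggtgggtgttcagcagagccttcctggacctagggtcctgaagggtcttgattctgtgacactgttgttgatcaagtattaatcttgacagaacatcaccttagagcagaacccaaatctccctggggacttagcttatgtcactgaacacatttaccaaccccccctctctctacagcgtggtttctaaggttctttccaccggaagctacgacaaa
Il7r: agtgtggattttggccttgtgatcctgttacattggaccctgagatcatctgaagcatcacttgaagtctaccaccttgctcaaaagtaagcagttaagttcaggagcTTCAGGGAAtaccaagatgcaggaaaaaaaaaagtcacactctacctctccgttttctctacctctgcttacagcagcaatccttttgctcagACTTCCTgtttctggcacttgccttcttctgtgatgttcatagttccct
Il9r: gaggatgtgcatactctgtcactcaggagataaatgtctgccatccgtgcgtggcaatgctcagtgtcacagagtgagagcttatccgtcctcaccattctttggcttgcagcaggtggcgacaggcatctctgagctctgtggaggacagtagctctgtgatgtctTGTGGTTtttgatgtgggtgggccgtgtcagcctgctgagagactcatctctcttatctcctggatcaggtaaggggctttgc
Il21r: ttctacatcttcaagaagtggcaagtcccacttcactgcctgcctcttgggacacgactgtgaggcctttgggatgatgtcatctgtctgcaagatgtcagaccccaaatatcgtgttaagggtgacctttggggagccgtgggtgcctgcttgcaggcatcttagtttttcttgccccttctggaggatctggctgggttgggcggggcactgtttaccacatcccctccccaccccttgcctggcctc

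The motifs were those of STAT factors (TTCNNNGAA), RUNX factors (TGTGGTT), ETS factors (AGGAAGT) and NF-kB (a 10-letter motif given here by name). Il7r held a STAT match beginning 142 bases before the start and an ETS match at 49 bases before it, and Il9r a RUNX match at 83 bases before it. The letters of these 4 motifs were not in the windows of Il2rg and Il21r. Of the 79 members, 62 had a promoter in the table. For 48 of them, Il7r not included, the bases just past the start lay in a transcript of the gene in the GENCODE M21 annotation. The STAT motif was in 7 of these 62 (11.3%) and in 7.18% of the 27025 promoters of all genes, the ETS motif in 10 (16.1%, against 7.80%), the RUNX motif in 6 (9.68%, against 4.46%) and the NF-kB motif in 1 (1.61%, against 0.337%). That NF-kB match was before Il6. Of the 8 members that rose and had a promoter listed, Il4i1 held an ETS match and the other windows held none of these letters. These matches describe letters and not bound sites.

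The genes of 7 receptor chains, Il1a, Il16, Il18bp and the overlapping genes Il4i1 and Il4i1b were higher with the extract. The IL-17 receptor chain gene Il17re was lower. Of the 79 members, 53 passed the filter on low counts, and 13 of these 53 (24.5%) passed the threshold, against 4.93% of the 16196 genes tested. The members were chosen with earlier results of these data known, so this contrast is not independent of them. Of the 13, 12 rose (background 3.97% of tested genes) and 1 fell (background 0.963%). The 12 were Il1a, Il16, Il17ra, Il18bp, Il18r1, Il21r, Il22ra2, Il27ra, Il2rb, Il2rg, Il4i1 and Il4i1b. The median log2 fold change was 1.20 over the 53 tested members and -0.02 over all tested genes. Il12a, Il21 and Il23r passed the filter through the extract libraries alone, so a difference was built into their selection. In Il1a, Il5ra, Il9r, Il10, Il12b, Il12rb1 and Il31ra, PBS replicate 2 lay under the filter's level of 0.34 CPM by library total. These genes, Il1a among the 13 calls, also needed an extract library to pass, so a difference could be favoured in them too. A change in the number of cells of a type and a change in RNA per cell, up or down, cannot be told apart in bulk libraries.

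None of the 13 calls was made when an extract library was left out, and the same held for every tested gene. Without MHE replicate 1 the quasi-likelihood test called 0 members (26 had an unadjusted p under 0.05, where the complete set gave 33), and without MHE replicate 2 it called 0 (23 had an unadjusted p under 0.05). Over all genes it likewise called 0 of 16196 (2538 and 2835 had an unadjusted p under 0.05). The log2 fold changes stayed near their values with all libraries, at 3.10 and 3.44 for Il2rg, 2.10 and 2.08 for Il17ra and 4.03 and 4.77 for Il4i1 without MHE replicates 1 and 2. Dropping PBS replicate 1 gave 27 member calls (16.3% of all tested genes passed) and dropping PBS replicate 2 gave 23 (11.1% of all), and each of these sets held all 13. With all libraries, limma-voom called 19 members (7.0% of all genes it tested) and DESeq2 29 (14.5%), again including all 13. Other settings lost some of the 13: scaling by library totals alone kept 12, no filter on low counts kept 11 and a replicate block kept 10.

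**Figure D1:**
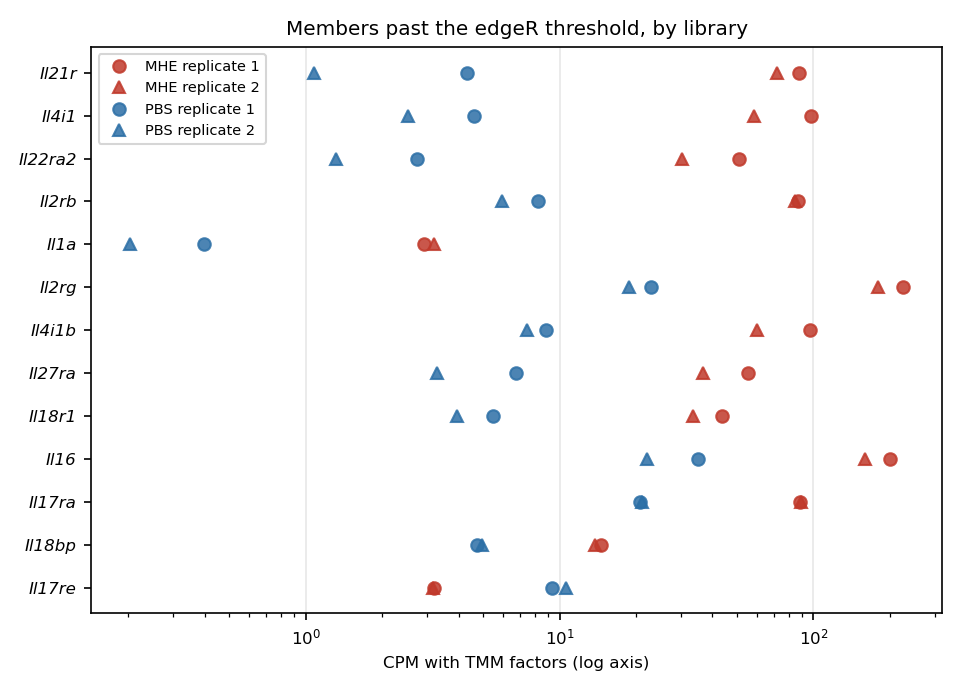
CPM (log axis) of the 13 members past the threshold in each library, with circles for replicate 1 and triangles for replicate 2. For the 12 upper genes both extract libraries lie to the right of both saline libraries, and for Il17re they lie to the left.

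The gamma chain family held the 2 members with the smallest adjusted p, Il2rg and Il2rb. Il2rg, the chain shared by the receptors for IL-2, IL-7, IL-9, IL-15 and IL-21, lies at chromosome X, 101264385 to 101268255 (GRCm38.p6). It stood at 226 and 179 CPM in MHE replicates 1 and 2 and at 22.9 and 18.8 CPM in PBS replicates 1 and 2. The groups lay far apart relative to their spread, and the log2 fold change was 3.28 ± 0.26 (adjusted p = 0.0192). Per kilobase of annotated exon, Il2rg was the most abundant member in both extract libraries, at 94.6 and 74.8 CPM per kb, against 9.59 and 7.87 with saline. Il4i1b had no exon length and was not part of that ranking.

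Il2rb, the beta chain through which IL-2 and IL-15 signal (chromosome 15, 78479256 to 78511621), stood at 87.3 and 84.8 CPM with the extract and at 8.23 and 5.95 CPM with saline. Replicates were close in each group, with a log2 fold change of 3.60 ± 0.25 (adjusted p = 0.0192). Il21r, the receptor for a cytokine of helper T cells (chromosome 7, 125603252 to 125634397), stood at 87.9 and 71.8 CPM against 4.30 and 1.08 CPM. Its log2 fold change of 4.90 ± 0.69 (adjusted p = 0.0355) was the largest among the 13. The saline libraries differed 3.98-fold for this gene, and the value moved to 6.19 when PBS replicate 1 was left out and to 4.21 when PBS replicate 2 was.

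The other receptor genes grouped with this family did not pass the threshold, although several had groups that did not overlap, as 62.0% of all tested genes did. The group includes the IL-13 receptor genes Il13ra1 and Il13ra2, whose chains do not pair with the gamma chain. Il9r, which binds the mast cell and T cell growth factor IL-9, had 10.3 and 13.8 CPM with the extract and 0.65 and 0.0676 CPM with saline. Its 33.6-fold ratio of means came with an adjusted p of 0.0502, and the saline values rested on 18 and 2 counts. PBS replicate 2 lay under the filter's level, so Il9r needed an extract library to pass the filter, which could favour a difference. It passed with limma-voom, DESeq2, 3 other settings of scaling or filtering, and without either saline library (log2 fold change 7.38 when PBS replicate 1 was dropped, 4.20 when PBS replicate 2 was, and 5.07 ± 0.92 with both). Mast cell and basophil markers, of which 0 of 7 passed, summed to 280 and 160 CPM with the extract and 150 and 65.9 CPM with saline. Other lists differed more between the groups, such as B cell markers (2154 and 1717 against 135 and 14.6 CPM) and T cell markers (1043 and 766 against 52.6 and 29.4 CPM). The part of any of these cells in the Il9r difference was not tested.

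Il7r, the receptor that sustains naive and memory T cells, had 122 and 198 CPM with the extract and 83.1 and 13.9 CPM with saline. PBS replicate 1 was thus closer to MHE replicate 1 than to the other saline library, and the adjusted p was 0.246. Without PBS replicate 1 the gene passed with a log2 fold change of 3.51 (adjusted p = 0.00117), against 1.72 ± 0.84 with all libraries. Il4ra, a chain of the type 2 cytokine receptors, had 186 and 166 CPM against 71.0 and 82.7 CPM (adjusted p = 0.0509). Il2ra, the high-affinity chain of activated and regulatory T cells, had 26.5 and 20.5 CPM against 6.64 and 10.9 CPM (adjusted p = 0.0745). Il13ra1, expressed also by non-lymphoid cells, had 41.8 and 38.9 CPM against 23.4 and 16.4 CPM (adjusted p = 0.0789). In these 3 genes both extract libraries were above both saline libraries, an order that 33.1% of all tested genes had. Il15ra (19.7 and 21.1 against 15.4 and 20.1 CPM) and the decoy chain Il13ra2 (3.49 and 1.72 against 2.31 and 0.879 CPM) had overlapping groups.

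Ligands of this family were scarce. Il7, a cytokine made by stromal cells, had 12.5 and 10 CPM with the extract and 4.08 and 3.14 CPM with saline, a log2 difference of 1.64 ± 0.31 that missed the threshold (adjusted p = 0.0529) and met it with limma-voom, DESeq2, a stricter filter and without PBS replicate 1. Il15, which supports natural killer cells, had 6.65 and 5.51 against 5.67 and 4.19 CPM, and the groups overlapped. Il21 had 12 and 18 counts with the extract and 0 in both saline libraries. Against a floor of 3 counts over the saline group this is at least 9.28-fold higher, with an adjusted p of 0.0839. Il21 passed the filter on low counts through the extract libraries alone, so this direction was built into its selection. Il2, the T cell growth factor, had 4 and 5 counts against 0 and 0 and was not tested, and Il9 had 0 counts in all 4 libraries. A floor of 3 counts corresponds to 0.0903 to 0.108 CPM in a single library and covers counting error only.

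Set against their receptors, the gamma chain ligands thus did not pass while shared chains did. For IL-15, Il2rb and Il2rg rose, whereas Il15 and Il15ra had overlapping groups (log2 fold changes of 0.30 ± 0.34 and 0.20 ± 0.23). For IL-21, receptor and shared chain rose, and the ligand was detected in the extract libraries alone at fewer than 20 counts each. For IL-7, both ligand and receptor lay higher with the extract in each library without passing the threshold.

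Markers of T cells moved with these receptors. Of 12 T cell markers, 11 rose, with a median log2 fold change of 5.0. Of 12 B cell markers 4 rose (median 4.65), of 8 dendritic cell markers 5 rose (median 3.31), and of 9 tested markers of natural killer and innate lymphoid cells 2 rose (median 1.86). Dendritic cell markers summed to 318 and 245 CPM with the extract against 40.7 and 40.4 CPM, and those of natural killer and innate lymphoid cells to 132 and 120 against 61.7 and 28.0 CPM. Markers of lymphatic endothelium and lymph node stroma, of which 3 of 7 tested rose, summed to 976 and 644 against 220 and 78.3 CPM. No T, B or dendritic cell marker was at 0 in any library, and Areg of the innate lymphoid list and Ccl19 and Glycam1 of the lymph node list were at 0 in at least 1. Their part in the receptor differences was not tested.

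**Figure D2:**
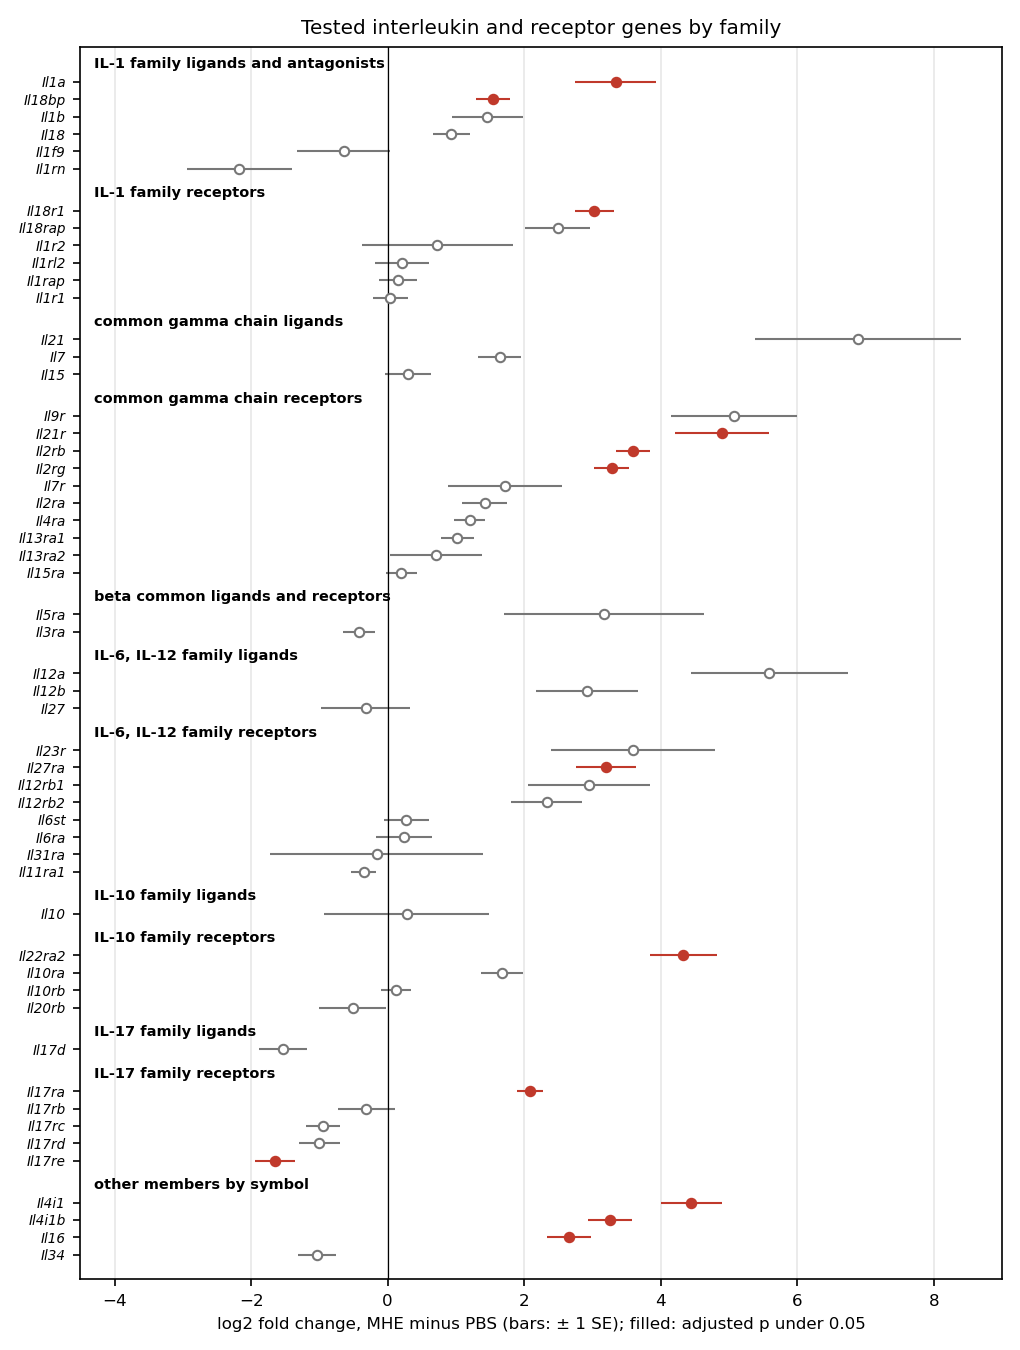
Log2 fold change (MHE minus PBS, bars ± 1 SE) of the 53 tested members by family, filled where the adjusted p was under 0.05. The values run from -2.17 (Il1rn) to 6.89 (Il21), the latter fitted on 0 saline counts and so no measure of size.

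In the IL-1 family, Il18r1, Il18bp and Il1a rose, and no chain of the IL-1 receptor passed. Il18r1, the binding chain of the IL-18 receptor of T and natural killer cells (chromosome 1, 40465552 to 40500854), stood at 43.8 and 33.5 CPM with the extract and 5.49 and 3.95 CPM with saline. It rose by 3.03 ± 0.29 on the log2 scale (adjusted p = 0.0212). Its signalling partner Il18rap had 16.5 and 14.0 CPM against 3.83 and 1.59 CPM, also without overlap (2.49 ± 0.48, adjusted p = 0.055). It passed with limma-voom, DESeq2, no low-count filter, and without PBS replicate 1 (3.24) or PBS replicate 2 (1.99).

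Il18bp encodes a secreted protein that captures IL-18. It stood at 14.6 and 13.8 CPM with the extract and 4.73 and 4.93 CPM with saline (1.55 ± 0.25, adjusted p = 0.0418). The cytokine Il18 itself had 9.96 and 9.23 against 5.31 and 4.77 CPM. Its groups did not overlap, the difference of 0.93 ± 0.27 had an adjusted p of 0.111, and Il18 overlaps Bco2 and Tex12, whose reads cannot be separated without strand.

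Il1a, an alarm cytokine released by damaged and myeloid cells, stood at 2.92 and 3.19 CPM with the extract and 0.397 and 0.203 CPM with saline. These levels correspond to 97 and 91 counts against 11 and 6, with a log2 fold change of 3.34 ± 0.59 (adjusted p = 0.0487). Testing without a filter on low counts ended the call (adjusted p = 0.0502). Il1b, the related cytokine activated by caspase-1, had 3.43 and 2.21 against 0.866 and 1.18 CPM (adjusted p = 0.15).

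Il1rn, the antagonist that blocks the IL-1 receptor, differed in the other direction. It had 3.79 and 9.30 CPM with the extract and 46.9 and 12.1 CPM with saline. PBS replicate 1 was 3.88-fold above PBS replicate 2, and the log2 difference of -2.17 ± 0.77 had an adjusted p of 0.153. It passed with DESeq2 and without PBS replicate 2 (-2.85). Macrophage markers, of which 0 of 10 passed, summed to 2349 and 2895 CPM with the extract and 4020 and 1744 CPM in PBS replicates 1 and 2. PBS replicate 1 was thus the highest library in both, but PBS replicate 2 was the lowest for the markers alone. PBS replicate 1 was also the highest for markers of keratinocytes (24.5 CPM, elsewhere 3.23 to 4.09 CPM) and of progenitors and fibroblasts (2278 CPM, elsewhere 1056 to 1839 CPM), and for no other list. The part of any of these cells in the Il1rn difference was not tested.

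The IL-1 receptor chains did not pass. Il1r1, the signalling receptor, had 40.0 and 59.4 CPM with the extract and 51.9 and 44.5 CPM with saline (log2 fold change 0.04 ± 0.26). Its partner Il1rap had 10.6 and 14.4 against 12.3 and 10 CPM, and the IL-36 receptor Il1rl2 had 13.3 and 23.8 against 12.0 and 19.9 CPM. All 3 had overlapping groups. The decoy receptor Il1r2, known from neutrophils and monocytes, varied widely between saline libraries, with 0.433 and 5.14 CPM in PBS replicates 1 and 2 (11.9-fold) and 2.89 and 6.35 CPM with the extract. It passed without PBS replicate 2 (log2 fold change 3.39) and turned to -0.17 without PBS replicate 1. Of 5 tested neutrophil markers 1 rose, and the list summed to 57.5 and 53.7 CPM against 27.8 and 23.2 CPM.

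In the IL-36 group 1 ligand was measured. Il1f9, the gene for IL-36 gamma, had 3.76 and 3.90 CPM with the extract and 9.57 and 2.40 CPM with saline. Il1f5, Il1f6, Il1f8 and Il1f10 had 0 counts in all 4 libraries, as had Il1rapl2, while Il1rapl1 had 2 counts, both in PBS replicate 1. The last pair of genes encodes synaptic relatives of the IL-1 receptor accessory protein.

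In the IL-6 and IL-12 families, Il27ra passed the threshold. This receptor of T cells (chromosome 8, 84030286 to 84042600) stood at 55.1 and 36.8 CPM with the extract and 6.75 and 3.28 CPM with saline. It rose by 3.20 ± 0.44 on the log2 scale (adjusted p = 0.0345), and ran from 2.76 to 3.79 with 1 library left out. The gene overlaps Palm3, from which reads could not be told apart without strand. Its ligand chain Il27 had 19 and 15 counts with the extract and 24 and 15 with saline.

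Genes of the IL-12 axis, which links dendritic cells to T and natural killer cells, did not pass. Il12a, Il12b, Il12rb1, Il12rb2 and Il23r lay higher in both extract libraries, as 33.1% of all tested genes did. For Il12a and Il23r this order was favoured by the filter on low counts, which they passed through the extract libraries alone. It was also favoured for Il12b and Il12rb1, which lay under the filter's level in PBS replicate 2 and needed an extract library to pass. Il12b, the chain shared by IL-12 and IL-23, had 6.59 and 7.41 CPM against 1.52 and 0.338 CPM (2.92 ± 0.75, adjusted p = 0.0891). Il12a, the other chain of IL-12, had 119 and 54 counts with the extract and 3 and 0 with saline, 53.5-fold apart (95% interval from counting error 18.0 to 262, adjusted p = 0.0604). The receptor chain Il12rb2, which overlaps Serbp1, had 2.47 and 3.51 against 0.505 and 0.676 CPM (adjusted p = 0.0707).

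The chain common to both receptors, Il12rb1, had 3.13 and 2.14 CPM with the extract against 0.578 and 0.101 CPM with saline (adjusted p = 0.117). Il23r, the specific chain of the IL-23 receptor, had 2.86 and 0.667 against 0.253 and 0.0338 CPM (adjusted p = 0.136). The extract libraries differed 4.29-fold for Il23r, the widest gap between them among tested members. All 5 of these genes passed with DESeq2. Without PBS replicate 1, Il12a, Il12b, Il12rb1 and Il23r passed (log2 fold changes of 4.34 for Il12b, 4.63 for Il12rb1 and 5.54 for Il23r), and without PBS replicate 2, Il12a, Il12b and Il12rb2 did (4.61, 2.20 and 2.55). Il12a has no count in PBS replicate 2, so its fitted value without PBS replicate 1 is no measure of size. The IL-23 chain Il23a had 0 and 3 counts against 4 and 0.

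The chains of the IL-6 receptor did not pass. Il6st, the signalling chain shared across the IL-6 family, had 431 and 466 CPM with the extract and 292 and 455 CPM with saline (0.27 ± 0.33). Per kilobase of exon it reached 26.3 and 41.0 CPM per kb in PBS replicates 1 and 2. Il6ra had 52.8 and 80.1 against 37.0 and 75.4 CPM, so that replicate 2 was the higher library in both groups. Il11ra1, the IL-11 receptor, had 52.9 and 54.5 against 70.1 and 66.4 CPM (-0.35 ± 0.18, adjusted p = 0.275). Its near-identical copy Il11ra2 had 0 counts in all libraries, so reads shared by the copies may have been assigned to Il11ra1 or dropped.

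The ligands were close to absent. Il6 had 2 and 6 counts with the extract and 2 and 1 with saline, and Il11 had 5 and 6 against 4 and 20. Il31 had 0 counts, and its receptor Il31ra had 19 and 12 against 31 and 0, with no stable direction across settings.

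In the IL-10 family, the soluble decoy Il22ra2 passed the threshold. It encodes a secreted protein that binds IL-22 and lies at chromosome 10, 19622028 to 19634681. It stood at 51.1 and 30.4 CPM with the extract and 2.74 and 1.32 CPM with saline (4.33 ± 0.49, adjusted p = 0.0248), and ran from 3.89 to 4.93 with 1 library left out, the highest without PBS replicate 1. Il22 had 0 counts in all 4 libraries, and Il22ra1, the membrane chain for IL-22, had 12 counts in PBS replicate 1 and 0 elsewhere. The decoy was thus measured without detectable ligand at this depth.

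Il10ra, the binding chain for IL-10 on leukocytes, had 105 and 108 CPM with the extract against 41.9 and 24.6 CPM with saline. Its log2 difference of 1.68 ± 0.31 missed the threshold (adjusted p = 0.0508) and passed with limma-voom, DESeq2, either other filter, and without PBS replicate 1 (2.10) or 2 (1.34). The broadly expressed partner Il10rb had 97.6 and 95.6 against 100 and 78.2 CPM (0.12 ± 0.22). The cytokine Il10 had 29 and 21 counts with the extract and 35 and 2 with saline, an 18.6-fold gap between the saline libraries in CPM and the widest among tested members detected in both.

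Il24 had 6 and 5 counts with the extract and 0 with saline, at least 3.40-fold higher against the group floor of 3 counts, and was not tested. Il19 and Il20 had 0 counts. The receptor chain Il20rb had 2.32 and 2.18 against 4.19 and 2.23 CPM, and Il20ra had 2 and 4 counts against 0 and 0.

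IL-17 receptor chains went in opposite directions. Il17ra, the chain common to IL-17 receptors (chromosome 6, 120463181 to 120483731), stood at 88.3 and 89.6 CPM with the extract and 20.7 and 21.2 CPM with saline. Replicates were nearly equal, and the log2 fold change was 2.09 ± 0.19 (adjusted p = 0.021). Il17re, the partner chain for IL-17C on epithelial cells (chromosome 6, 113458699 to 113470758), stood at 3.19 and 3.16 CPM against 9.35 and 10.6 CPM. It fell by 1.65 on the log2 scale (SE 0.29, adjusted p = 0.0469), and lost its call when scaled by library totals alone (adjusted p = 0.0579) or tested with no filter on low counts (adjusted p = 0.0505). Il17re overlaps Gm52872, Il1a overlaps Gm14023 and Il16 overlaps Phgdh-ps1, and reads of such pairs may be shared.

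The remaining partner chains were lower without passing or overlapped. Il17rc, the partner for IL-17A and IL-17F, had 15.7 and 14.0 CPM with the extract and 24.1 and 33.2 CPM with saline (-0.94 ± 0.25, adjusted p = 0.0909). Il17rd, also known as a brake on fibroblast growth factor signalling, had 9.69 and 11.7 against 16.8 and 26.0 CPM (-1.0 ± 0.30, adjusted p = 0.115). Both passed without PBS replicate 1 (-1.17 and -1.30), and Il17rc also with DESeq2. Il17rb, the chain for IL-25, had 4.21 and 3.55 against 3.47 and 6.15 CPM.

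Among the ligands, Il17d, a tissue-derived member, was the only one tested. It had 2.02 and 2.14 CPM with the extract and 6.21 and 5.78 CPM with saline (-1.53 ± 0.35, adjusted p = 0.0719), and passed with DESeq2. Il17a had 1 count in all, Il17b 1, Il25 2 and Il17f 4. Il17c had 15 and 4 counts against 2 and 0, 8.82-fold apart (95% interval from counting error 2.13 to 78.1). Beside the lower chains, adipocyte markers summed to 22843 and 14926 CPM with the extract and 25896 and 37074 CPM with saline (1 of 8 fell, 0 rose), and keratinocyte markers to 4.09 and 3.23 against 24.5 and 3.51 CPM with Krt5, Krt14, Krt15 and Dsp at 0 in at least 1 library. Their part was not tested.

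The beta common family was represented by 2 tested receptors. Il3ra, the IL-3 receptor of basophils and plasmacytoid dendritic cells, had 8.10 and 8.99 CPM against 11.4 and 11.5 CPM (-0.42 ± 0.24). Il5ra, known from eosinophils and some B cells, had 189 and 88 counts with the extract and 27 and 0 with saline (adjusted p = 0.229). It passed without PBS replicate 1, where the remaining saline library had no count. Il3 had 0 counts.

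Members placed by symbol alone included 3 of the 12 that rose. Il16, whose product is processed in lymphocytes to a chemoattractant that binds CD4 (chromosome 7, 83642819 to 83746028), stood at 200 and 160 CPM with the extract and 35.0 and 22.0 CPM with saline (2.66 ± 0.32, adjusted p = 0.0249). Il4i1, a secreted amino acid oxidase of antigen-presenting cells (chromosome 7, 44836288 to 44840809), stood at 97.4 and 58.4 against 4.62 and 2.53 CPM (4.45 ± 0.45, adjusted p = 0.0218). Il4i1b (chromosome 7, 44816370 to 44840804) spans the whole of Il4i1 and also overlaps Nup62, Atf5 and Tbc1d17.

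Il4i1b stood at 96.8 and 60.0 CPM with the extract and 8.84 and 7.47 CPM with saline (3.26 ± 0.32, adjusted p = 0.0212). Its counts were close to those of Il4i1 with the extract (3215 and 1710 against 3236 and 1665) and higher with saline (245 and 221 against 128 and 75). The division of reads between these overlapping genes is unknown, and they are not independent observations. Il34, a ligand of the macrophage receptor Csf1r, had 10.8 and 10.7 CPM against 17.3 and 26.5 CPM (-1.03 ± 0.28, adjusted p = 0.099). It passed with DESeq2 and without PBS replicate 1 (-1.31). The antisense transcript Il1bos had 0 and 1 counts against 4 and 0.

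Many members lie beside each other in the genome, and neighbours did not always differ alike. Within 200 kb of each other there were 21 neighbouring pairs, 10 of them with both genes tested. Overlapping genes are not among these pairs, and 1 such pair, Il4i1 and Il4i1b, had both genes past the threshold. Of the 10, 0 had both past the threshold and 5 had 1. On chromosome 1, Il1r2, Il1r1, Il1rl2, Il18r1 and Il18rap lie in this order, with log2 fold changes of 0.73, 0.04, 0.21, 3.03 and 2.49. Between Il1rl2 and Il18r1 lies 1 other protein-coding gene, which is not a member. Along that cluster the 2 IL-18 receptor genes, 14.5 kb apart, had the larger values.

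On chromosome 7, Il4ra and Il21r lie 23.8 kb apart and had 1.20 and 4.90, and on chromosome 2, Il2ra and Il15ra lie 12.0 kb apart and had 1.42 and 0.20. Il12rb2 and Il23r, 46.6 kb apart on chromosome 6, had 2.33 and 3.60. Il17re and Il17rc, 0.696 kb apart on the same chromosome, were both lower (-1.65 and -0.94), and reads in so short an interval may be shared. Differences between neighbours were not tested.

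**Figure D3:**
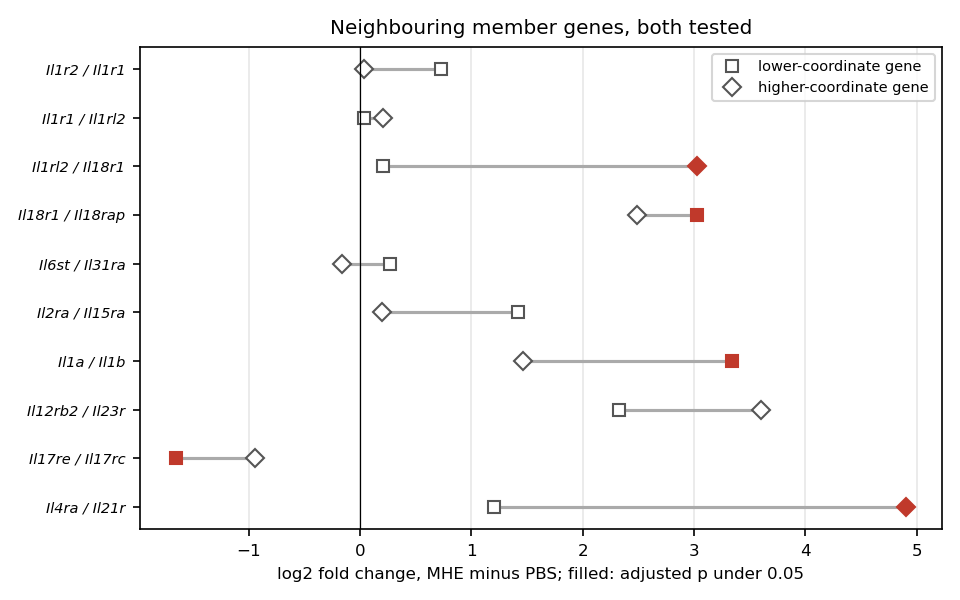
Log2 fold change (MHE minus PBS) of both genes in the 10 neighbouring pairs with both tested, squares for the gene at lower coordinates, diamonds for the other, filled where the adjusted p was under 0.05. Il4ra and Il21r are far apart (1.20 and 4.90), and Il17re and Il17rc both lie below 0.

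The 2 saline libraries differed from each other more often than the extract libraries did. Of 49 tested members detected in both saline libraries, 15 differed at least 2-fold in CPM, 13 of them higher in PBS replicate 1. Of the 53 tested members, 4 differed at least 2-fold between the extract libraries (Il13ra2, Il1r2, Il1rn and Il23r). Genes higher in PBS replicate 1 included Il10, Il9r (9.62-fold), Il23r (7.49-fold), Il7r (5.98-fold), Il12rb1 (5.72-fold) and Il12b (4.5-fold), and the B cell markers had the same order. Apart from Il7r (2301 and 411 counts), these rested on few counts in PBS replicates 1 and 2. They were 35 and 2 for Il10, 18 and 2 for Il9r, 7 and 1 for Il23r, 16 and 3 for Il12rb1 and 42 and 10 for Il12b. Il1r2 and Il6ra (2.04-fold) were the 2 that were higher in PBS replicate 2. The share of all tested genes that differed 2-fold was not computed, and what sets these libraries apart was not tested.

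**Figure D4:**
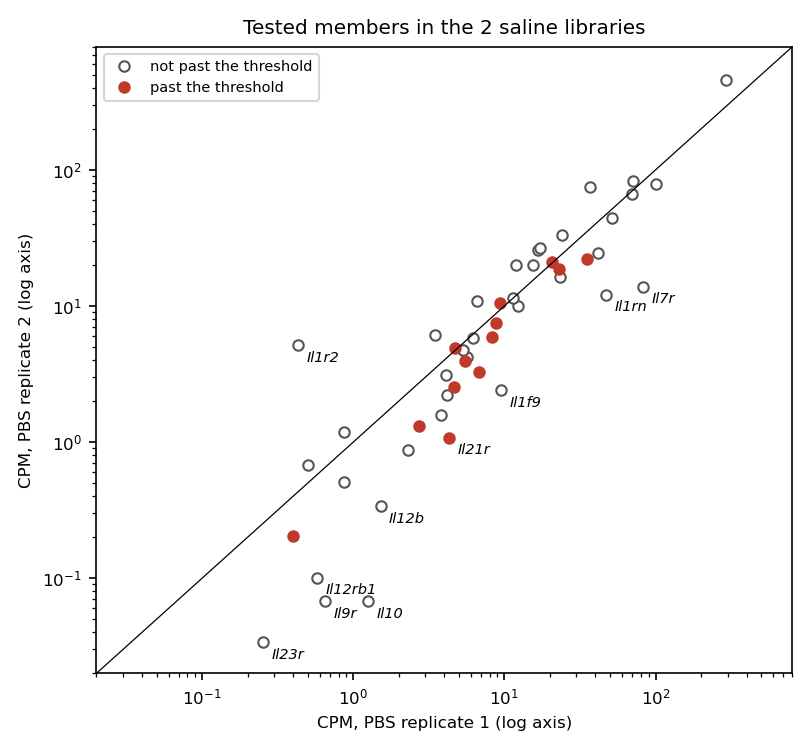
CPM of 49 tested members in PBS replicate 1 (horizontal) and PBS replicate 2 (vertical), both log axes, with the line of equality and filled points for members past the threshold. Il10, Il9r, Il23r and Il7r lie well below the line and Il1r2 well above it.

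Genes of the signalling pathways and partner chains that are not members were taken from 3 lists. The lists, too, were chosen with earlier results of these data known. Of 15 genes of Janus kinase and STAT signalling, 2 rose and 0 fell (13.3% against 4.93% of tested genes), with a median log2 fold change of 0.86. Stat4, which carries IL-12 signals, had 35.7 and 52.6 CPM with the extract and 3.07 and 0.946 CPM with saline (4.46 ± 0.62, adjusted p = 0.0346). The feedback inhibitor Socs2 (1.20 ± 0.23, adjusted p = 0.0521) and the kinase Tyk2 (0.86 ± 0.18, adjusted p = 0.062) came closest without passing. Both extract libraries were above both saline libraries in 13 of the 15, where 33.1% of all tested genes had that order.

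Of 21 genes of IL-1 and IL-17 signalling, 4 rose and 0 fell (19.0%), with a median of 0.30. Nfkbiz, a nuclear partner of NF-kB induced by IL-1 and IL-17, had 21.7 and 41.2 CPM against 6.71 and 6.73 CPM (2.23 ± 0.37, adjusted p = 0.043). The NF-kB subunit Nfkb1 had 1.28 ± 0.20 (adjusted p = 0.0412), and the adaptors Traf5 and Traf2 had 1.5 ± 0.25 and 1.20 ± 0.21 (adjusted p = 0.0429 and 0.0478). The call of Traf2 was lost without PBS replicate 2 (adjusted p = 0.0572). The proximal adaptor Myd88 was not among those that passed.

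Of 15 partner chains and ligands whose symbols do not start with Il, 2 rose and 0 fell (13.3%), with a median of 0.66. Cd4, the receptor for the Il16 product and the marker of helper T cells, had 135 and 127 CPM against 5.99 and 1.28 CPM (5.17 ± 0.77, adjusted p = 0.0385, and 0.0514 when no filter on low counts was used). Csf2rb2, the mouse IL-3 receptor beta chain, rose by 1.34 ± 0.22 (adjusted p = 0.0429), and its near-identical copy Csf2rb makes the assignment of reads between them uncertain. Cd93, a receptor for the IL-17D protein, had 67.6 and 125 CPM against 214 and 270 CPM (-1.33 ± 0.37, adjusted p = 0.1), and Csf1 had 73.8 and 97.6 against 50.7 and 51.7 CPM (adjusted p = 0.117).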

How the data were processed

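RNA-seq libraries of 2 MHE and 2 PBS samples were analysed, grouped by their titles. The submitters' processing notes name build mm10 and the tools TopHat2, edgeR and limma. Counting program, annotation and strand setting were not given in the sources used here. The files deposited by the authors hold raw counts, in whole numbers, of 26214 gene symbols. From these, edgeR 4.0.16 in R 4.3.3 was run on all genes with filterByExpr (minimum count 10, minimum total 15; 16196 genes tested), TMM factors (0.886 to 1.07), estimateDisp and a robust quasi-likelihood fit, with Benjamini-Hochberg adjustment over all tested genes and a threshold of 0.05. Standard errors are absolute log2 fold changes over the square root of the F statistic. The biological coefficient of variation was 33.6%.

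Every member could be named. Values of all libraries are given for members past the threshold, for those with 10 counts in some library, non-overlapping groups and a log2 fold change of at least 1 in size, and for their ligand or receptor, and further members are named to account for all. Of the 3 other lists, up to 4 genes with the smallest p are named, and Myd88 outside that rule. The values of 1 gene on these lists are not reported here. The members and lists were chosen with earlier results of these data known. Exon lengths came from GENCODE M21 (union of exons, GRCm38), and loci and promoters from RefSeq GRCm38.p6, in which all 79 members matched by symbol. A planned search of proteins was not run. Ratios on 1 to 3 saline counts carry an exact 95% interval, and a floor of 3 counts stands for a group without counts. Other settings tried were scaling by median-of-ratios factors or by library totals, filtering not at all or more strictly (2 libraries at CPM 1 or more, total of 50 counts), DESeq2 1.42.0, limma-voom (limma 3.58.1), a replicate block and each library left out, keeping the tested genes. Tested on simulated data (5 draws, 16196 genes), the procedure recovered 60.8% of genes changed 4-fold and 88.6% changed 16-fold, and 98 of 845 calls (11.6%) were unchanged genes. The p-values weigh each difference against the spread between these libraries, an estimate that the fit partly shares across all tested genes.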

Additional observations from a re-analysis of the deposited data

How the results depend on the processing

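With the libraries complete, members called and (in brackets) calls over all genes numbered 13 (799) as reported, 14 (812) with median-of-ratios factors, 15 (947) with library totals, 13 (855) without a filter, 17 (975) with a stricter filter, 19 (1133) with limma-voom, 10 (764) with the replicate block and 29 (2969) with DESeq2, where 57.9% of the calls over all genes were higher against 80.5%. Library totals moved the median of all genes from -0.02 to 0.14, and Il17re then lay at -1.48. JAK-STAT calls were 2 (main), 5 with library totals, 8 with DESeq2, 4 with limma-voom and 1 with the replicate block. IL-1 and IL-17 signalling calls fell from 4 to 2 with the replicate block, and partner chain calls from 2 to 1 without the filter. Leaving out a library gave 0 to 2633 calls over all genes, 0 to 27 for members, 0 to 4 for JAK-STAT, 0 to 5 for IL-1 and IL-17 signalling and 0 to 4 for partner chains. Here 0 always followed the loss of an MHE library (2538 and 2835 genes at an unadjusted p under 0.05 without MHE replicates 1 and 2). The cause of these changes was not tested.

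Among the 53 tested members, under the 7 settings with all libraries, Il31ra alone turned direction (1.94 with limma-voom and 0.92 with the replicate block). Leaving out each library turned 16 values of 12 genes. The values ran from -0.65 (without PBS replicate 2) to 3.48 for Il10, from -0.05 (without PBS replicate 2) to 0.29 for Il10rb, from -0.68 to 0.16 (without PBS replicate 2) for Il17rb and from -0.27 (without MHE replicate 2) to 0.30 for Il1r1, which was -0.07 without PBS replicate 2. They ran from -0.17 (without PBS replicate 1) to 3.39 for Il1r2, from -0.08 (without MHE replicate 2) to 0.36 for Il1rap, from -0.66 to 0.10 (without PBS replicate 1) for Il27 and from -0.03 (without PBS replicate 1) to 0.61 for Il6st. They ran from -1.32 to 0.66 (without PBS replicate 1) for Il1f9, from -0.26 to 0.62 for Il1rl2, which was -0.12 without PBS replicate 1, from -0.20 to 0.84 for Il6ra, which was -0.09 without MHE replicate 2, and from -1.16 to 6.93 (without PBS replicate 1) for Il31ra, which was 0.04 without MHE replicate 2. The replicate numbers come with no stated pairing: same-numbered libraries deviated together at r = 0.12 across genes, over 2 pairs. With the replicate block, 10 members were called, all among the 13, and Il17re, Il18bp and Il1a were not (adjusted p = 0.0658, 0.0571 and 0.0683). The 26 members with too few counts to test, 12 of them at 0, were not compared at this depth. Whether depth or lack of expression sets those counts was not tested.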
